A study of Drosophila melanogaster with 6 samples.

Results

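The Hippo pathway genes examined here are 9 listed genes of *Drosophila melanogaster*, namely *hpo*, *sav*, *wts*, *mats*, *ex*, *Mer*, *kibra*, *yki* and *sd*. They were picked by name as core and upstream pathway components, with earlier results of these data known, and they are 9 of the 14885 genes with deposited counts. PolyA+ RNA was sequenced from whole imaginal leg discs of *white* [1118] flies, in 3 libraries taken 2 hours after pupal formation (2h APF) and 3 libraries taken from wandering larvae of the third stage (wL3), before the ecdysone peak. All 6 libraries carry the same genotype, so stage is the only labelled difference. How many discs or animals went into a library, and of which sex, is not given in the sources used here, and nothing says that libraries of a stage came from separate cultures, so the p-values measure only the spread between these libraries, which may be technical. The labels' extraction text speaks of embryos, whereas the labelled tissue is leg disc.

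The Hippo pathway is a kinase cascade that restrains the growth of epithelial organs such as the discs. The kinase Hpo, with its scaffold Sav, activates the kinase Wts, whose adaptor is Mats, and Wts phosphorylates the co-activator Yki and keeps it out of the nucleus. Unphosphorylated Yki enters the nucleus and binds the DNA-binding protein Sd, and together they switch on genes for growth and survival. The FERM-domain proteins Ex and Mer and the WW-domain protein Kibra act upstream at the apical cortex, and their genes are themselves known outputs of Yki, which makes them a negative feedback arm.

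The deposited values were estimated counts that summed to between 24395318 and 30880112 per library at 2h APF and to between 27514509 and 33373176 at wL3. Levels are given as CPM, counts relative to library sizes adjusted by the TMM method, and, where genes are compared with each other, as TPM, which also corrects for transcript length. The 6 disc markers *shg*, *Dll*, *dac*, *hth*, *al* and *Antp* summed to between 2326 and 2446 CPM at 2h APF and to between 2355 and 2367 CPM at wL3, so disc RNA was present at both stages. Within that sum *shg* rose (log2 fold change 0.34), *Dll* (-0.43) and *Antp* (-0.47) fell and the other 3 did not pass. Summed markers of several other tissues differed more. The 6 hemocyte markers summed to between 17.7 and 22.4 CPM at 2h APF and to between 133 and 295 CPM at wL3, and 5 of the 6 fell. The 6 muscle markers summed to between 40.0 and 41.5 CPM at 2h APF, with *Tm2* at 0, against between 55.0 and 258 CPM at wL3, and 5 of 6 fell. The 5 matched glue genes of the salivary gland were at most at 0.271 CPM in sum at 2h APF, against 50.9 CPM or more at wL3, and all 5 fell. The 6 fat body markers summed to between 204 and 856 CPM at 2h APF, and at wL3 to 32.3 CPM in replicate 1 but to 3465 and 2238 CPM in replicates 2 and 3, so wL3 replicate 1 stood apart. Of the 5 markers of adepithelial myoblasts, the muscle precursors attached to the disc, 4 rose, and they summed to between 259 and 280 CPM at 2h APF and to between 198 and 204 CPM at wL3. The 3 tracheal markers summed to between 360 and 384 CPM at 2h APF and to between 248 and 265 CPM at wL3, and 2 of the 3 rose. Most of that difference was in *Gasp*, with a mean of 247 CPM at 2h APF and 135 CPM at wL3. *btl* rose from 10.3 CPM at wL3 to 13.9 CPM at 2h APF, and *trh* did not pass (adjusted p = 0.480, edgeR). The 3 nerve markers summed to between 98.0 and 108 CPM at 2h APF and to between 80.2 and 98.0 CPM at wL3, and each had an adjusted p of 0.109 or more (edgeR). The lowest wL3 sums of hemocyte, muscle, glue and fat body markers were all those of replicate 1. The part of these other cells in the results below was not tested. The values given without wL3 replicate 1 do not test it, because they keep the wL3 libraries with more of these RNAs. In whole discs, fewer cells of a type and less RNA per cell cannot be told apart.

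RNA of all 9 Hippo pathway genes was detected in the leg disc at both stages and all 9 passed the filter on low counts, with between 940 and 19274 estimated counts per library. Of the 9 genes, *mats*, *kibra* and *yki* were higher and *ex* and *Mer* were lower at 2h APF (adjusted p under 0.05, from the quasi-likelihood test of edgeR after Benjamini-Hochberg correction over all genes), while *hpo*, *sav*, *wts* and *sd* did not pass the test. None of the 9 changed by more than 1 log2 unit, whereas 18.6% of the 8944 genes tested both passed the test and exceeded that size. The 5 of 9 stand beside 67.4% of all genes tested that passed at any size, with 30.6% of all genes tested higher and 36.9% lower, so the share of the 9 genes that passed was not above the background. The libraries of the stages did not overlap for the same 5 genes, against 73.3% of all genes tested. The median size of the log2 fold change was 0.11 over the 9 genes and 0.39 over all genes tested.

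**Figure D1:**
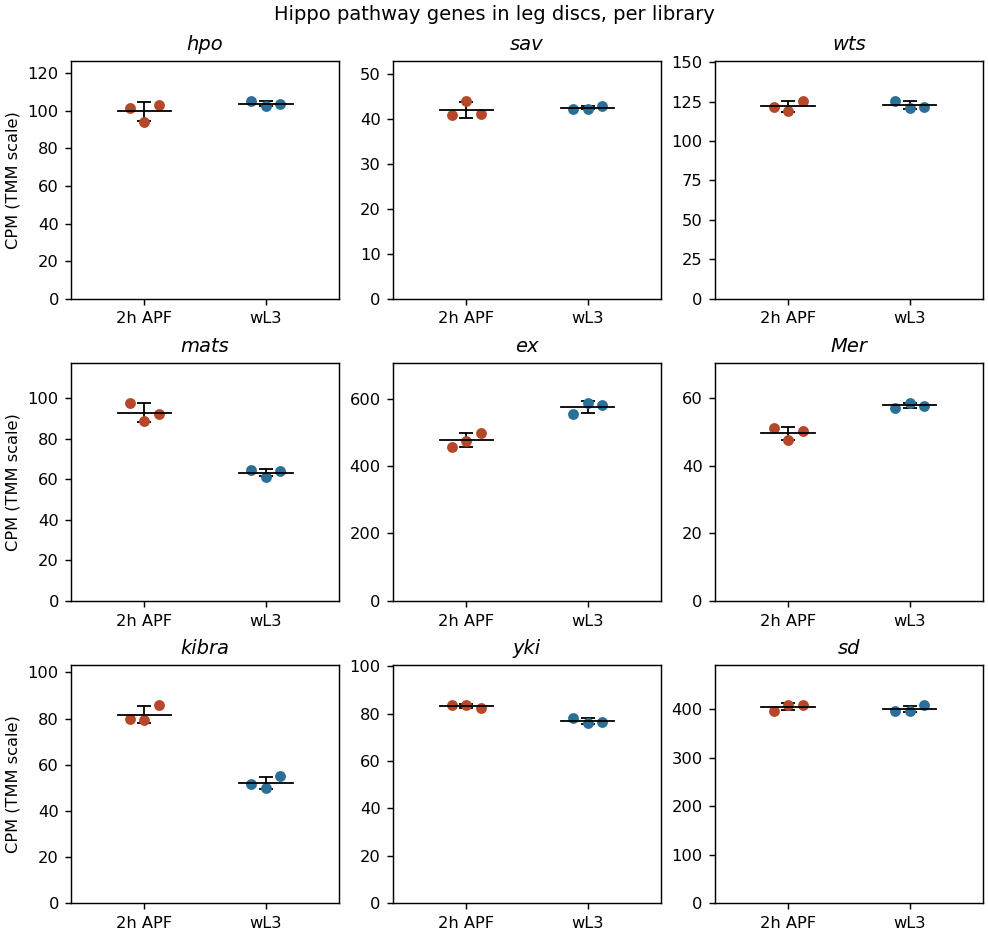
CPM on the TMM scale (y axis, from 0) of each of the 9 Hippo pathway genes in the 3 libraries at 2h APF and the 3 at wL3 (x axis). Points are libraries, horizontal lines the stage means and error bars the SD. The stages are apart for *mats*, *kibra*, *yki*, *ex* and *Mer* and overlap for *hpo*, *sav*, *wts* and *sd*.

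In the core kinase cassette *mats*, 1 of 4 genes, passed the test, beside 67.4% of all genes tested. *hpo*, which encodes the upstream kinase of the cassette, is annotated at 2R:19493996-19496856 (reverse strand), in coordinates of build BDGP6.54, as for all genes here. The 2h APF libraries 1, 2 and 3 had 102, 94.0 and 103 CPM, and the wL3 libraries 1, 2 and 3 had 105, 103 and 103 CPM. The stages overlapped, and 2h APF replicate 2 was the lowest library. The log2 fold change was -0.06 (95% interval -0.16 to 0.04, adjusted p = 0.253, edgeR). *hpo* shares 130 exon bases (4.64% of its own) with *Rep* on the opposite strand, which was at 37.0 ± 1.605 CPM at 2h APF and 29.6 ± 0.469 CPM at wL3 (SD, n = 3 each).

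*sav*, the gene of the scaffold that binds Hpo, is annotated at 3R:23058609-23061304 (reverse strand). Its levels were 40.8, 44.0 and 41.0 CPM in the 2h APF libraries and 42.2, 42.3 and 42.9 CPM in the wL3 libraries. The wL3 values lay inside the range at 2h APF. The log2 fold change was -0.02 (95% interval -0.11 to 0.08, adjusted p = 0.716, edgeR). *sav* shares 73 exon bases (3.27%) with *Ctns* on the same strand, which held only 1.47 ± 1.61 CPM at 2h APF and 1.36 ± 0.150 CPM at wL3 (SD, n = 3 each).

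*wts*, the gene of the kinase that phosphorylates Yki, is annotated at 3R:30789625-30806619 (reverse strand). It held 122, 119 and 125 CPM at 2h APF and 126, 121 and 122 CPM at wL3. The libraries of both stages were interleaved. The log2 fold change was -0.01 (95% interval -0.09 to 0.07, adjusted p = 0.840, edgeR), an interval that leaves room for a change of less than 0.1 log2 units in either direction.

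*mats*, which encodes the small Mob-family adaptor that Wts needs for full activity, is annotated at 3R:22421161-22423302 (forward strand). The 2h APF libraries had 97.8, 89.0 and 92.2 CPM, against 64.9, 61.2 and 64.0 CPM in the wL3 libraries. Every 2h APF library was above every wL3 library, and the gap was wider than the range within either stage. The means were 93.0 ± 4.47 CPM at 2h APF and 63.4 ± 1.91 CPM at wL3 (SD, n = 3 each), 46.8% above the wL3 mean. *mats* rose by 0.55 log2 units (SE 0.0458, edgeR adjusted p = 4.35e-05). Without wL3 replicate 1 the log2 fold change was 0.61 (adjusted p = 1.26e-04, edgeR). A larger absolute log2 fold change was found for 38.5% of all genes tested.

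The 3 upstream genes all passed the test, in opposite directions, beside 67.4% of all genes tested that passed. *kibra*, whose product joins Mer and Ex at the cortex to activate the cassette, is annotated at 3R:14697689-14724261 (reverse strand). It held 79.8, 79.3 and 85.9 CPM in the 2h APF libraries and 51.4, 50.04 and 55.0 CPM in the wL3 libraries. Every 2h APF library was above every wL3 library. The means were 81.7 ± 3.68 CPM at 2h APF and 52.2 ± 2.57 CPM at wL3 (SD, n = 3 each), 56.7% above the wL3 mean, which was the largest change in proportion among the 9 genes. *kibra* rose by 0.65 log2 units (SE 0.0511, edgeR adjusted p = 3.46e-05), and by 0.68 without wL3 replicate 1 (adjusted p = 9.18e-05, edgeR).

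*ex*, which encodes a FERM-domain protein that is both an activator of the cassette and a classic output of Yki, is annotated at 2L:431227-448701 (forward strand). It was at 456, 475 and 499 CPM at 2h APF, against 554, 588 and 580 CPM at wL3. All 2h APF libraries were below all wL3 libraries. The means were 477 ± 21.2 CPM at 2h APF and 574 ± 17.6 CPM at wL3 (SD, n = 3 each). *ex* fell by 0.27 log2 units (SE 0.0421, edgeR adjusted p = 0.00108), and by 0.25 without wL3 replicate 1 (adjusted p = 0.00168, edgeR). Of the exon bases of *ex*, 448 (6.71%) are shared with *crq*, a scavenger receptor gene on the opposite strand, and whether the authors' counting used strand is not given in the sources used here. *crq* stood at 67.7 ± 6.28 CPM at 2h APF and at 59.5 ± 3.13 CPM at wL3 (SD, n = 3 each), well below *ex*, with an adjusted p of 0.0588 (edgeR).

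*Mer*, the fly homolog of the human tumor suppressor NF2 and the other FERM-domain gene, is annotated at X:19689697-19693500 (reverse strand). It held 51.3, 47.6 and 50.2 CPM at 2h APF and 57.2, 58.7 and 57.8 CPM at wL3. The 2h APF libraries were all lower. The means were 49.7 ± 1.91 CPM at 2h APF and 57.9 ± 0.761 CPM at wL3 (SD, n = 3 each). *Mer* fell by 0.22 log2 units (SE 0.0386, edgeR adjusted p = 0.00191), and by 0.19 without wL3 replicate 1 (adjusted p = 0.0155, edgeR).

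Of the nuclear pair, *yki* passed the test with a small difference and *sd* did not pass, where 67.4% of all genes tested passed. *yki*, the gene of the co-activator on which the cascade acts, is annotated at 2R:24065975-24068485 (reverse strand). Summed over its transcripts it was at 83.6, 83.7 and 82.2 CPM at 2h APF and at 78.2, 76.1 and 76.3 CPM at wL3. The stages did not overlap, but the means of 83.2 ± 0.839 CPM at 2h APF and 76.9 ± 1.196 CPM at wL3 (SD, n = 3 each) were only 8.21% of the wL3 mean apart. The log2 fold change was 0.11 (SE 0.0304, adjusted p = 0.0132, edgeR). This call did not hold without wL3 replicate 2 (adjusted p = 0.0777, edgeR) or without wL3 replicate 3 (adjusted p = 0.0801, edgeR), and it was stronger without wL3 replicate 1 (log2 fold change 0.17, adjusted p = 0.00582, edgeR).

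*sd*, which encodes the TEAD-family DNA-binding partner of Yki, is annotated at X:15804370-15827682 (forward strand). It held 397, 409 and 409 CPM at 2h APF and 397, 396 and 409 CPM at wL3. The ranges of the stages coincided almost completely. The log2 fold change was 0.02 (95% interval -0.05 to 0.09, adjusted p = 0.658, edgeR). Each gene was also represented by its transcript most abundant over the 6 libraries alone, which for *sd* was sd-RM. There *sd* passed with 0.15 (adjusted p = 0.0139, edgeR). In the fit over all transcripts sd-RM had 0.10 (adjusted p = 0.0971, edgeR) and did not pass. The next most abundant, sd-RN, had -0.10 in that fit (adjusted p = 0.314, edgeR).

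An exact two-sided permutation test of log2 CPM gave p = 0.1, the smallest value that 3 libraries against 3 allow, for each of *mats*, *kibra*, *yki*, *ex* and *Mer*. It gave p = 0.2 for *hpo*, 0.7 for *wts*, 0.6 for *sav* and 0.3 for *sd* by the same exact permutation. Within a stage the SD of the 9 genes was between 0.842% and 4.93% of the mean.

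**Figure D2:**
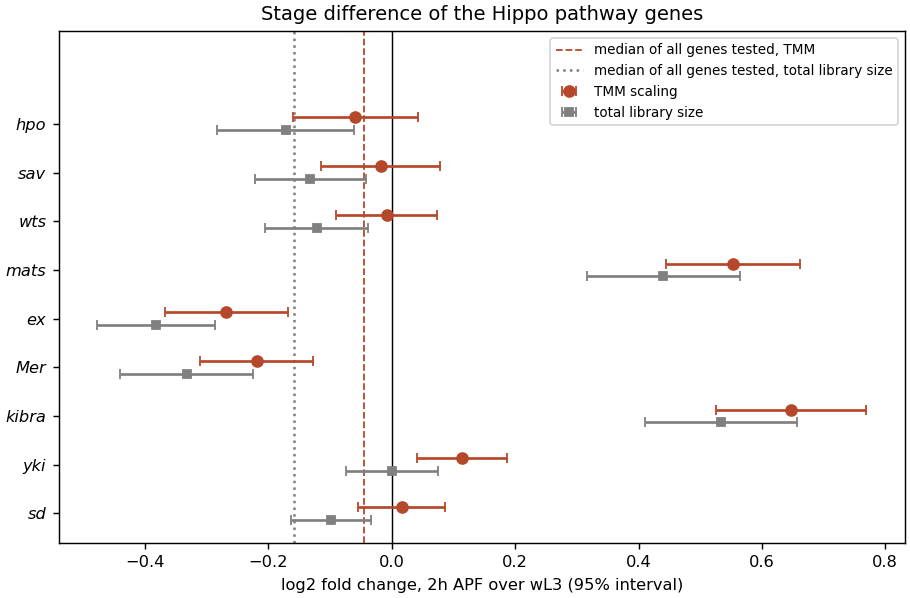
Log2 fold change of 2h APF over wL3 (x axis) with its 95% interval for the 9 Hippo pathway genes (rows), with TMM scaling (circles) and with total library size (squares). Vertical lines mark the median of all genes tested under each scaling, and the 4 genes that did not pass with TMM scaling lie near that median under both.

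The scaling of the libraries matters for the smaller of these differences. When libraries were scaled by their total count instead of TMM, the median log2 fold change of all genes tested moved by -0.11 (to -0.16, against -0.04 with TMM), and the calls over all genes then split into 24.7% higher and 46.2% lower. On that scale *mats* and *kibra* remained higher, with log2 fold changes of 0.44 and 0.53, and *ex* and *Mer* remained lower, with -0.38 and -0.33. *yki* no longer passed (log2 fold change 0.00, 95% interval -0.07 to 0.07, adjusted p = 0.997, edgeR). *hpo* (-0.17), *wts* (-0.12), *sav* (-0.13) and *sd* (-0.10) passed as lower on that scale, so that 2 of the 9 genes were higher and 6 lower. Relative to the median of all genes tested, the log2 difference of *mats* was 0.60 with either scaling, that of *kibra* 0.69, that of *yki* 0.16, that of *ex* -0.22 and that of *Mer* -0.17. On the same relative scale *hpo*, *wts*, *sav* and *sd* were within 0.1 of that median under both.

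The main transcripts of *yki* had larger log2 fold changes than the gene as a whole, in opposite directions. The annotation lists 4 transcripts of *yki*, of which yki-RF, yki-RD and yki-RG were in the authors' transcript list. The remaining one, yki-RH, codes for 418 codons and has as many exon bases as yki-RF (1525). It also has the exon that yki-RD lacks, and reads from it could have been counted as those of yki-RF. Both yki-RF and yki-RG code for 395 codons, while yki-RD codes for 343, because it skips a single coding exon of 156 bases (52 codons) at 2R:24066561-24066716. Yki is known to exist in forms with a single WW domain and with a pair of them, WW domains being the modules by which it binds proteins with PPxY motifs such as Wts and Ex.

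yki-RF, the main transcript with the exon, was at 63.8, 58.4 and 61.2 TPM at 2h APF and at 46.0, 46.2 and 48.9 TPM at wL3. The 2h APF libraries were all higher, and its log2 fold change was 0.35 (SE 0.0445, adjusted p = 0.00141, edgeR over 17186 transcripts). yki-RD, the transcript without the exon, was at 14.3, 17.1 and 15.1 TPM at 2h APF, against 25.6, 23.96 and 23.2 TPM at wL3. All 2h APF libraries were lower, and yki-RD fell by 0.67 log2 units (SE 0.0995, edgeR adjusted p = 0.00262). yki-RG held at most 2.44 TPM in any library and did not pass the test (adjusted p = 0.636, edgeR). Among all transcripts tested, 43.3% passed.

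Of the counts of *yki*, the transcript without the exon took 18.0% ± 1.79 at 2h APF and 30.5% ± 1.47 at wL3 (SD, n = 3 each). The TPM of transcripts with the exon was 4.04 ± 0.479 times that of the transcript without it at 2h APF and 2.01 ± 0.137 times at wL3 (SD, n = 3 each). The shares of the stages did not overlap (exact two-sided permutation test, p = 0.1, the smallest possible for n = 3 each). How often shares fail to overlap over all transcripts was not counted. A test of transcript use within a gene, edgeR's diffSpliceDGE over 10726 transcripts of 3443 genes, gave yki-RD a log2 use of -0.53 relative to the gene (unadjusted p = 0.00994, adjusted p = 0.164), so the difference in use did not pass once all genes were taken into account. In that test 4.2% of all transcripts passed, and none of the 24 transcripts of Hippo pathway genes in it did. At an unadjusted p under 0.05 (edgeR) were 2 of the 24, yki-RD and sd-RK. The share of all transcripts at that unadjusted level was not counted, so this count has no background beside it. The log2 use of sd-RK was -0.84 (unadjusted p = 0.0130, adjusted p = 0.199, edgeR). These values rest on how kallisto divided reads among transcripts that share most of their sequence.

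**Figure D3:**
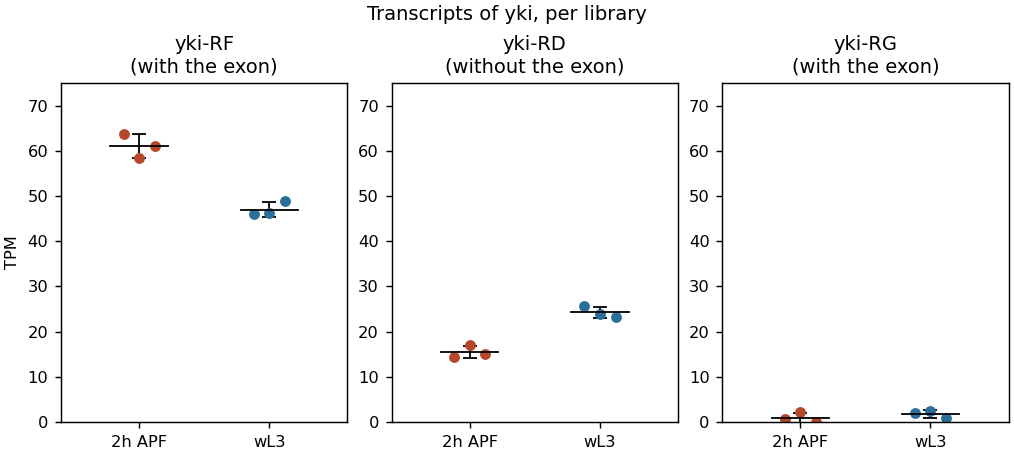
TPM (y axis, from 0) of the 3 *yki* transcripts in the deposited list, per library at 2h APF and wL3 (x axis). Points are libraries, lines the means and error bars the SD. yki-RF is at 58.4 TPM or more at 2h APF and yki-RD at 17.1 TPM or less, while at wL3 they are at 46.0 to 48.9 and 23.2 to 25.6 TPM.

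*sd* has the most transcripts of the 9 genes, with 19 in the deposited list and 2 of these at 0 in every library. Of the 17 tested, none passed (adjusted p between 0.0971 and 0.969, edgeR), where 43.3% of all transcripts tested passed. An unadjusted p under 0.05 was found for 1 of the 17, and the share of all transcripts at that level was not counted. Low transcripts were imprecise. sd-RA, at 0.479 TPM at 2h APF and 0.510 TPM at wL3, had a log2 fold change of -0.12 with an SE of 0.554. The lack of calls therefore does not show equal levels. sd-RM, which codes for 435 codons, took 43.6% ± 2.27 of the *sd* counts at 2h APF and 40.3% ± 0.576 at wL3, and sd-RN, which codes for 370 codons, took 25.6% ± 1.36 at 2h APF and 27.2% ± 1.68 at wL3 (SD, n = 3 each). Only sd-RQ codes for as many as 625 codons, and it held 1.86% ± 0.137 at 2h APF and 1.46% ± 0.285 at wL3 (SD, n = 3 each). As for yki-RD, the shares of the stages did not overlap for sd-RM and sd-RQ (exact two-sided permutation test, p = 0.1 each). Neither passed the test of transcript use (unadjusted p = 0.340 for sd-RM and 0.498 for sd-RQ, edgeR). The share of all transcripts without such overlap was not counted.

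The remaining genes offered little choice of transcript. sav-RA, with 608 codons, took 89.7% ± 4.02 of the *sav* counts at 2h APF and 93.9% ± 1.39 at wL3 (SD, n = 3 each), the rest going to sav-RB with 603 codons. ex-RA held 99.2% ± 0.595 of the *ex* counts at 2h APF and 98.5% ± 0.828 at wL3 (SD, n = 3 each), and both *ex* transcripts encode the same 1427 codons. Nearly all *hpo* counts were those of hpo-RB. *wts*, *mats*, *kibra* and *Mer* each had a single transcript in the deposited list, although the annotation now holds 3 for *mats* and 2 each for *kibra* and *Mer*, so differences between their transcripts were not analysed here.

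Compared per length, the levels of the 9 genes differed widely at both stages. At 2h APF the order was *sd* (126 ± 2.32 TPM), *mats* (106 ± 6.44 TPM), *ex* (86.6 ± 3.61 TPM), *yki* (77.5 ± 1.27 TPM), *hpo* (45.4 ± 2.54 TPM), *wts* (25.7 ± 0.796 TPM), *Mer* (25.7 ± 1.23 TPM), *sav* (25.0 ± 0.887 TPM) and *kibra* (20.5 ± 0.947 TPM), each as mean and SD of 3 libraries. *wts*, *Mer* and *sav* were not separable there, as neighbours in this order overlapped. At wL3 the order was *sd* (125 ± 3.08 TPM), *ex* (104 ± 4.06 TPM), *yki* (73.0 ± 0.530 TPM), *mats* (72.3 ± 1.94 TPM), *hpo* (47.3 ± 0.335 TPM), *Mer* (29.9 ± 0.626 TPM), *wts* (25.8 ± 0.336 TPM), *sav* (25.3 ± 0.446 TPM) and *kibra* (13.05 ± 0.715 TPM). There *yki* overlapped with *mats* and *wts* with *sav*. *mats* ranked 2 of 9 at 2h APF and 4 of 9 at wL3, the largest move in the order. The place of *sd* rests on the sum over its 19 targets. sd-RM, its most abundant transcript over the 6 libraries, was at 40.5 TPM at 2h APF and 37.0 TPM at wL3. By its mean sd-RN was higher at wL3, with 39.4 TPM, and lower at 2h APF, with 37.5 TPM. Both were below the most abundant transcripts of *mats*, *ex*, *yki* and *hpo* at both stages.

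**Figure D4:**
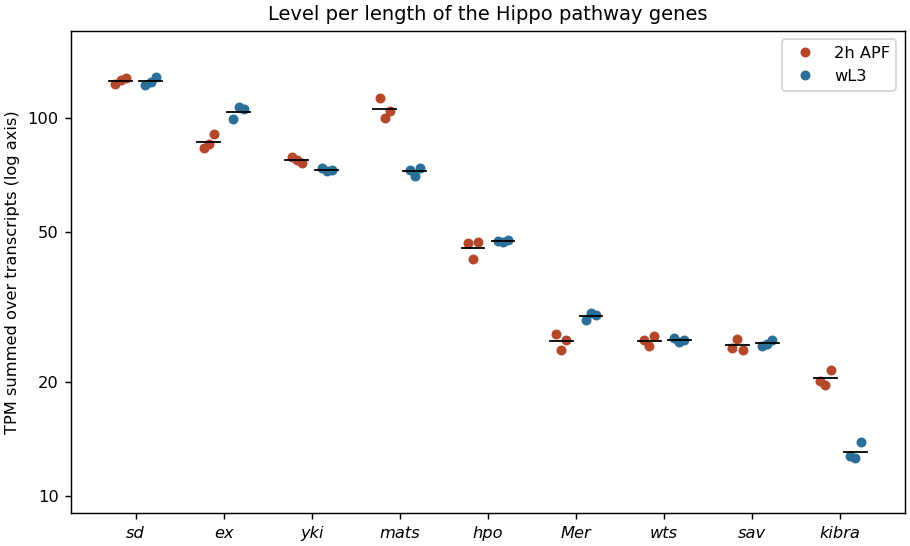
TPM summed over the transcripts of each gene (y axis, logarithmic) in the 3 libraries at 2h APF and the 3 at wL3, with genes ordered by their wL3 mean (x axis). Points are libraries and lines the stage means, from 126 TPM for *sd* to 20.5 TPM for *kibra* at 2h APF and from 125 to 13.05 TPM at wL3.

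Summed over transcripts, the DNA-binding partner *sd* was above the co-activator *yki* at both stages, an order that turned round between their most abundant transcripts (*yki* 61.1 TPM at 2h APF and 47.0 TPM at wL3). The adaptor *mats* was above the kinase *wts* that it serves at both stages. By their mean TPM over the 6 libraries, *sd*, *ex* and *mats* lay above 88.9%, 85.2% and 84.3% of all genes tested, and *kibra* above 40.2%.

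A further 44 genes that act on the Hippo pathway were examined as a list. At 2h APF 22 rose, 7 fell and 15 did not pass (edgeR), so 65.9% passed, close to the 67.4% of all genes tested. By direction more genes of the list were higher than lower, whereas 30.6% of all genes tested were higher and 36.9% lower. The list was chosen with earlier results of these data known, and its direction was not tested. The median log2 fold change of the list was 0.13, against -0.04 over all genes tested. With total library size 19 were higher and 14 lower, where 24.7% of all genes tested were higher and 46.2% lower. The 7 lower genes became 3 without wL3 replicate 1 and 4 without wL3 replicate 2.

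Of the 10 genes of the Fat-Dachsous branch, which signals to Wts from the cell surface through an atypical cadherin pair, 5 rose and 2 fell, and the 70% called was near the 67.4% of all genes tested (30.6% higher, 36.9% lower). The Fat-binding gene *lft* rose by 0.94 log2 units, to 250 ± 3.83 CPM at 2h APF, against 130 ± 8.69 CPM at wL3 (SD, n = 3 each). The ligand gene *ds* (log2 fold change 0.39) and *Fbxl7* (0.52) rose as well. The receptor gene *ft* was at 768 ± 20.9 CPM at 2h APF and at 779 ± 32.9 CPM at wL3 (SD, n = 3 each), with an adjusted p of 0.674 (edgeR).

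Among 11 apical and junctional regulators, 6 rose and 2 fell, so 72.7% were called, against 67.4% of all genes tested (30.6% higher, 36.9% lower). The adhesion gene *ed*, whose product binds Sav at junctions, rose by 0.90 log2 units to 1835 ± 97.2 CPM at 2h APF, against 982 ± 13.7 CPM at wL3 (SD, n = 3 each). *crb*, the apical determinant that binds Ex, rose by 0.56, and the genes of its partners *sdt* and *Patj* by 0.83 and 0.45. *jub*, whose product holds Wts at junctions, fell by 0.11 (adjusted p = 0.0433, edgeR).

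Of 13 kinases and phosphatase regulators, 7 rose and 6 did not pass (edgeR), so 53.8% were called, against 67.4% of all genes tested (30.6% higher, 36.9% lower). *Tao*, whose kinase activates Hpo, had a log2 fold change of 0.11 with TMM scaling, about as large as the shift of all genes under total library size. Of the 6 listed genes of the phosphatase complex that acts against Hpo, *Fgop2* (0.54), *Strip* (0.30), *Slmap* (0.24) and *Cka* (0.16) rose, and *Mob4* (0.04, adjusted p = 0.262, edgeR) and *mts* did not pass. The catalytic subunit gene *mts* was at 662 ± 18.8 CPM at 2h APF and at 681 ± 12.5 CPM at wL3 (SD, n = 3 each, adjusted p = 0.293, edgeR).

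Of 10 partners of Yki or Sd, 4 rose and 3 fell, and the 70% called was near the 67.4% of all genes tested (30.6% higher, 36.9% lower). *Hipk*, the gene of a kinase that promotes Yki activity, rose by 1.75 log2 units, to 1247 ± 127 CPM at 2h APF, against 370 ± 5.72 CPM at wL3 (SD, n = 3 each, adjusted p = 2.32e-06, edgeR), and it alone among the 44 genes passed 1 log2 unit. *Tgi*, whose product competes with Yki for Sd, rose by 0.40. *vg*, the wing partner of Sd, rose by 0.95 but was low in the leg disc, at 10.4 ± 0.886 CPM at 2h APF and 5.40 ± 0.0837 CPM at wL3 (SD, n = 3 each). *tsh* fell by 0.35 and *14-3-3epsilon*, which holds phosphorylated Yki in the cytoplasm, by 0.20.

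The known outputs of Yki and Sd did not move one way. Of 8 such genes, 4 rose and 3 fell at 2h APF and 1 did not pass, so 7 of 8 passed beside 67.4% of all genes tested. *Diap1*, the caspase inhibitor that keeps disc cells alive, rose by 0.45 log2 units to 663 ± 27.7 CPM at 2h APF, against 486 ± 30.9 CPM at wL3 (SD, n = 3 each). The glypican gene *dlp* rose by 1.42, while its relative *dally* fell by 0.19. *Myc*, the growth regulator, fell by 1.07 to 159 ± 2.33 CPM at 2h APF, against 334 ± 12.01 CPM at wL3 (SD, n = 3 each, adjusted p = 1.62e-06, edgeR). *CycE*, the cyclin of the entry into S phase, fell by 0.55. *fj* and *E2f1* rose by 0.31 and 0.25, and *vn* had an adjusted p of 0.0833 (edgeR). Of the feedback genes *kibra*, *ex* and *Mer*, 1 rose and 2 fell, so they were divided as well. The genes of this list also answer to other signals in the disc, and *fj* is in the Fat-Dachsous list too.

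**Figure D5:**
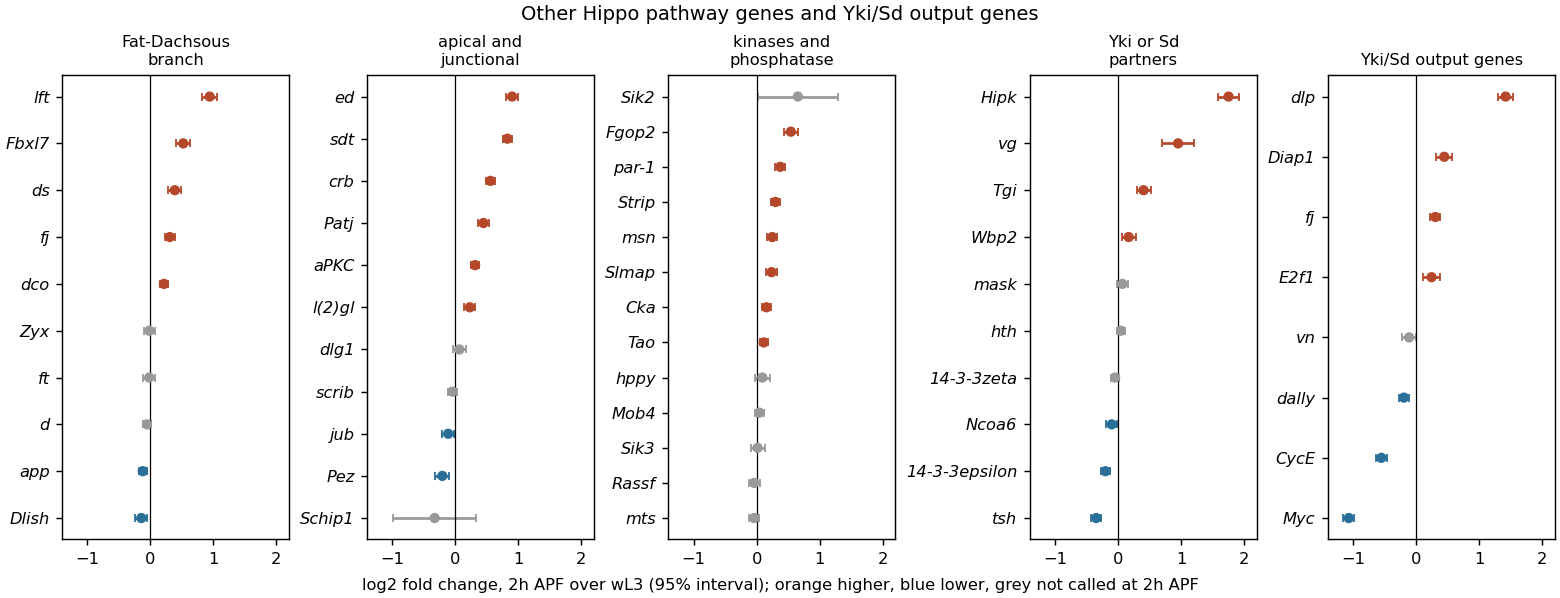
Log2 fold change of 2h APF over wL3 (x axis) with its 95% interval for the 44 other Hippo pathway genes in 4 groups and for the 8 Yki/Sd output genes (rows), TMM scaling. Orange-red marks genes that rose, blue genes that fell and grey genes that did not pass; *Hipk* at 1.75 and *dlp* at 1.42 lie farthest right and *Myc* at -1.07 farthest left.

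For each of the 9 genes, the genes with the most similar profile of log2 CPM over the 6 libraries were sought among 7303 genes whose counts averaged 100 or more. The closest to *mats* were *CG9304* and *Cad86C* (Pearson's r of 1.00 and 0.999), and the closest to *kibra* were *Lis-1* and *AnxB11* (0.999 each). The closest to *yki* were *side-IV* and *shf* (0.999 and 0.998), to *ex* *Tsp42El* and *Rab39* (0.997 each), and to *Mer* *PIG-X* and *PNPase* (1.00 and 0.999). These 6 libraries are of only 2 stages, so that any gene with a clear stage difference of the same sign scores high. Between 40 and 137 genes reached 0.99 for each of these 5. Pearson's r takes no account of the size of a change. *CG9304* (log2 fold change 0.58) was near *mats* (0.55) in size, but *Tsp42El* (-1.77) was far from *ex* (-0.27). For *hpo*, *wts*, *sav* and *sd* no gene reached 0.99, and the closest were *mRpL12* (0.986), *CG10576* (0.983), *blo* (0.978) and *G9a* (0.985).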

How the data were processed

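The authors assigned paired-end reads to a list combining Ensembl 74 transcripts and additional lincRNAs with kallisto and deposited, for each library, estimated counts and TPM of 42506 targets without scaling between libraries. The deposited TPM is scaled per effective length within a library. The processing notes name dm3 and sleuth, and versions are not given in the sources used here. The deposited length columns were not used as measurements.

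Targets were matched by FlyBase identifier to Ensembl 115 genes (BDGP6.54), whose coordinates are given. Matched targets (27011) held between 96.4% and 96.6% of the counts, and 32 belonged to the 9 genes. Each gene received the rounded total of its targets, and 492 genes whose values were identical within 118 groups entered once per group. Stages were compared over the 8944 genes passing filterByExpr with edgeR 4.0.16 (R 4.3.3, TMM, quasi-likelihood test, Benjamini-Hochberg adjustment). Calls required an adjusted p below 0.05. The standard error is the log2 fold change over the square root of F. The fit was tested on simulated data with changes larger than those of the 9 genes. That test does not cover small differences. Other tools were DESeq2 1.42.0, limma 3.58.1, Python 3.11.15, pandas 2.3.3, scipy 1.17.1 and matplotlib 3.10.9. Alternatives were total library size, DESeq2, other count filters, limma on log2 TPM (pseudocount 0.5 or 0.1), counts rescaled from TPM, the most abundant transcript per gene, unmatched targets as features, a replicate block, a fold threshold and leaving out each library.

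The 9 genes and all lists were chosen with earlier results of these data known. Genes could be named if they were among the 9, in a list, overlapped one of the 9, marked a cell type, or were 1 of the 2 most correlated with one of the 9. The test of transcript use was added after the values were seen. With 3 libraries per stage and at least 940 counts per library for each of the 9 genes, total counts and replicate spread both limit precision. The genome sequence was not used here.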

Additional observations from a re-analysis of the deposited data

How the results depend on the processing

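The calls of *mats*, *kibra*, *ex* and *Mer* held under all 16 alternatives run for each, with log2 fold changes between 0.44 and 0.61, 0.53 and 0.69, -0.38 and -0.22, and -0.33 and -0.17. With total library size *hpo* (-0.17), *wts* (-0.12) and *sav* (-0.13) passed as lower, *sd* turned to -0.10 and passed, and *yki* (0.00015) did not pass. *yki* also missed the threshold with limma on log2 of TPM (0.0856 with a pseudocount of 0.5, adjusted p = 0.0556, and 0.0861 with 0.1, adjusted p = 0.0510). The transcript most abundant over the 6 libraries, sd-RM, gave *sd* 0.15 (adjusted p = 0.0139, edgeR). Leaving out each library gave *hpo* -0.09 to -0.01, *wts* -0.03 to 0.05, *sav* -0.05 to 0.02, *mats* 0.52 to 0.61, *yki* 0.10 to 0.17, *sd* 0.01 to 0.05, *ex* -0.30 to -0.24, *kibra* 0.61 to 0.68 and *Mer* -0.24 to -0.19.

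Of the 9 genes, 6 were lower with total library size, and 0 were higher and 0 lower beyond 1 log2 unit; leaving out libraries gave 2 to 3 higher and 2 lower. Of the 44 other genes, the 7 lower became 14 with total library size, 4 with counts rescaled from TPM or with the most abundant transcript and 3 with DESeq2, and 3 to 6 without single libraries (21 to 25 higher); beyond 1 log2 unit 1 was higher and 0 lower. Of the output genes, 1 was higher and 1 lower beyond 1 log2 unit. Over all genes tested, 2735 were higher and 3297 lower, and 871 and 797 were so beyond 1 log2 unit.

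The transcript most abundant over the 6 libraries was also taken alone. Mean TPM at 2h APF and wL3 was then 22.4 and 23.8 for *sav*, 61.1 and 47.0 for *yki* and 40.5 and 37.0 for *sd*. As a share of TPM, yki-RD took 19.97% at 2h APF and 33.2% at wL3, yki-RF 64.3% at wL3, sd-RM 32.3% and 29.6%, and sd-RN 29.8% and 31.4%. The log2 fold change of yki-RD was between -0.75 and -0.60 without single libraries and that of yki-RF between 0.33 and 0.38, and both passed each time. The log2 use of yki-RD, between -0.58 and -0.48, did not pass in any alternative (adjusted p between 0.146 and 0.475, edgeR).

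The labels give same-numbered libraries nothing in common but the number. Their deviations from the stage means correlated with r of -0.00308, 0.147 and -0.255. Pairs with different numbers had r between -0.240 and 0.285. With 3 libraries a stage these correlations depend on each other, so they cannot tell whether same-numbered libraries share a batch. With the replicate number as a block 2596 genes were higher and 3065 lower, and 3 of the 9 genes were higher and 2 lower, among them *yki* with 0.11 (adjusted p = 0.0482, edgeR). Total counts and 3 libraries a stage limit what differences under 0.1 log2 units can show.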
